A study of Homo sapiens with 2 samples.

Results

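The genes described here are the nuclear genes for the 5 complexes of oxidative phosphorylation and for factors that build them. They were chosen by name: every row of the deposited table whose gene symbol begins with NDUF, UQCR, SDHA to SDHD, CYC1, ATP5, or COX followed by a number from a fixed set, in current or older form. The rule found 110 of the 16021 listed genes, 106 by their current symbol and 4 by an older symbol. They comprised 47 genes of complex I, 8 of complex II, 10 of complex III, 25 of complex IV and 20 of complex V. By role, 79 were subunits, 24 assembly factors, 4 tissue-specific isoforms, 1 a regulator, and 2 a readthrough transcript or gene copy.

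RNA was sequenced from HGC-27, an established human cell line from a gastric cancer, with 1 library for each of 2 conditions. Cells received lentivirus with a non-targeting shRNA (the control) or with an shRNA against DDX5, a DEAD-box RNA helicase, and cells of both conditions went through puromycin selection, begun 48 h after transduction, and were collected 1 week later. A single shRNA label and a single library stood for the knockdown, so effects of DDX5 loss, of this shRNA and of the individual culture cannot be told apart. With 1 library per condition there was no replicate, no test and no p-value, and every statement below compares these 2 libraries only. Protein was not measured, and in bulk RNA fewer cells that express a gene and less RNA per cell cannot be told apart.

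Values are FPKM, fragment numbers scaled to transcript length and library size, which can be compared between genes because they are per length. A log2 ratio is the log2 of FPKM + 1 in the DDX5 shRNA library less that in the library with the non-targeting shRNA, called the control, so 0 means equal levels and positive means higher with the DDX5 shRNA. DDX5 itself stood at 170.5 FPKM in the control and 50.78 FPKM with the DDX5 shRNA, 29.8% of the control level, in the direction of the labels. From the spacing of low values, the depth was estimated at 1.5e+07 fragments for the control and 1.515e+07 for the knockdown. Of the markers for the cell type, 4 epithelial keratin and adhesion genes summed to only 5.74 FPKM in the control and 1.93 FPKM with the DDX5 shRNA. Most of that sum was KRT8 (5.24 and 1.31 FPKM), while EPCAM (0.04 and 0.39 FPKM) and KRT18 (0.10 and 0.16 FPKM) were slightly higher with the DDX5 shRNA. Gastric mucosa genes MUC6 and CLDN18 summed to 0.11 and 0.08 FPKM. Of the mesenchymal markers, VIM stood at 1583.62 and 1270.59 FPKM, ZEB1 at 14 and 17.13 FPKM and FN1 at 4.76 and 5.99 FPKM. The part of these marker differences in any result below was not tested.

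Oxidative phosphorylation is the process by which mitochondria turn the electrons of NADH and succinate into ATP. Complex I takes electrons from NADH and complex II from succinate, both pass them to ubiquinone, complex III passes them on to cytochrome c, and complex IV hands them to oxygen. Complexes I, III and IV pump protons, and complex V, the ATP synthase, lets the protons flow back and makes ATP. The mitochondrial genome codes for the central membrane subunits of complexes I, III, IV and V, and all other subunits, including the whole of complex II, come from nuclear genes. Of the 13 mitochondrially encoded subunit genes, 0 were analysed here, so the nuclear side alone is described. Many nuclear subunit genes are known to carry promoter sites for the factors NRF1, ETS family proteins and YY1.

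The promoters of the complex II genes are shown first, because 3 of its 4 subunits were lower with the DDX5 shRNA (values below). Each sequence is 300 bases from RefSeq, build GRCh38.p14, from 250 bases before the gene's annotated start to 50 after it, 5′ to 3′ on the gene's strand. Capitals mark the NRF1 motif (GCGCA, any base, GCGC), the ETS motif CCGGAAG and the YY1 motif AAGATGGC, searched on both strands. SDHA lies at chr5:218070-218369 on the plus strand, SDHB at chr1:17053983-17054282 on the minus strand and SDHD at chr11:112086623-112086922 on the plus strand. SDHC is named only.
SDHA: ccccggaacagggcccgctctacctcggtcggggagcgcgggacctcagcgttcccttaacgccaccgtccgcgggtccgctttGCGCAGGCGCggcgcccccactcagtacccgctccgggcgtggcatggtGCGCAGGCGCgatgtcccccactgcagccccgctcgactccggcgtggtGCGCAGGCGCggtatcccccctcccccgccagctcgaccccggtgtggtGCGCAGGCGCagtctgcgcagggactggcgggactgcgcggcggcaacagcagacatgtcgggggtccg
SDHB: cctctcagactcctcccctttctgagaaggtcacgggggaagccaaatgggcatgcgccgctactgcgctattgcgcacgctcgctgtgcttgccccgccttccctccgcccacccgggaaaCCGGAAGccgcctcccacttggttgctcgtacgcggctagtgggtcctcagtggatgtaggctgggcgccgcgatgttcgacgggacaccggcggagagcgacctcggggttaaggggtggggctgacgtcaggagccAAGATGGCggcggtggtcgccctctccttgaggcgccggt
SDHD: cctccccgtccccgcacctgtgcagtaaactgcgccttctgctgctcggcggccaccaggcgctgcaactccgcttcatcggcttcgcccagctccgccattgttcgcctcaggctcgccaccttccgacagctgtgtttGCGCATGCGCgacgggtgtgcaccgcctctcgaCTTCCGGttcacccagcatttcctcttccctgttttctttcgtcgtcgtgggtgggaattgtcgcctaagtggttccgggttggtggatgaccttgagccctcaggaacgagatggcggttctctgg

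The SDHA window held 4 NRF1 motifs, starting 166, 117, 68 and 19 bases before the gene start. The SDHB window held 1 ETS motif, 128 bases before the start, and 1 YY1 motif beginning 10 bases inside the gene. The SDHD window held 1 NRF1 motif, 110 bases before the start, and 1 ETS motif at 77 bases. Each of these motifs was in a minority of the windows of the whole group, but more frequent there than in the windows of all genes. RefSeq promoter windows matched 91 of the 110 genes, with 114 windows in all. The NRF1 motif was in 20.2% of them against 8.61% of the 17991 windows of all genes in the table, the ETS motif in 28.1% against 14.9%, and the YY1 motif in 14% against 4.13%. A match describes the letters only, and binding was not measured.

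NDUFA4L2, a paralog known to be induced by hypoxia, had the highest log2 ratio of all 104 genes past the filter (values below), and it is shown beside NDUFA4, a complex IV subunit once counted in complex I. Their windows follow, with capitals for the hypoxia-response core ACGTG or GCGTG on either strand. NDUFA4L2 lies at chr12:57240713-57241012 and NDUFA4 at chr7:10940104-10940403, both on the minus strand of GRCh38.p14. For NDUFA4L2 the outermost annotated start was used.
NDUFA4L2: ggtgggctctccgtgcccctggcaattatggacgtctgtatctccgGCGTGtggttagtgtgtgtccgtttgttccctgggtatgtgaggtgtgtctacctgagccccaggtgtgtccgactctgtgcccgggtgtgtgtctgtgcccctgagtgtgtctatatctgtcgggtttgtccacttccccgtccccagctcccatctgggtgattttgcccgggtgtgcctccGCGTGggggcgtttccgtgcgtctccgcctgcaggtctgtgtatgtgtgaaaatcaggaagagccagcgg
NDUFA4: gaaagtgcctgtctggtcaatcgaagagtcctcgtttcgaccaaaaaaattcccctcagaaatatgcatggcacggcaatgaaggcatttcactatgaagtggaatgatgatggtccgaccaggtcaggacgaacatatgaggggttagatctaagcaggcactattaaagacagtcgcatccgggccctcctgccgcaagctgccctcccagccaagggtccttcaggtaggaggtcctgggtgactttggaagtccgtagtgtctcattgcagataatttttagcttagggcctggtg

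The NDUFA4L2 window held the core at 204 and at 20 bases before the start, and the NDUFA4 window held none. This core is short and was found in 65.8% of the windows of the oxidative phosphorylation genes and in 58.2% of all windows.

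Most of the 104 genes past the expression filter (an average of at least 1 FPKM) differed little between the libraries. Of them 62 had a log2 ratio above 0, where 52.0% of all 11413 genes past the filter did. At a threshold of 1.5-fold on FPKM + 1, 11 genes (10.6%) were higher with the DDX5 shRNA and 0 were lower, where 13.0% of all genes were higher and 10.1% lower. The count of higher genes is close to the share among all genes, and the count of lower genes is below it. The split depends on scaling. All FPKM summed to 549129 in the control and 594757 with the DDX5 shRNA, and rescaling to the same total moved the median of all genes by -0.10. Cytosolic ribosomal protein genes moved with this shift: they held 27.8% of all FPKM in the control and 33.3% with the DDX5 shRNA. Rescaling to a total without these genes moved the median of all genes by only -0.0014. Of the 104 genes, 11 were then at least 1.5-fold higher and 0 lower, as without rescaling. After rescaling to the total of all genes, 52 of the 104 genes were above 0, where 43.3% of all genes were. At that total 6 were at least 1.5-fold higher and 6 lower, where 10.1% of all genes were higher and 14.3% lower. Among the 84 genes with an average of 30 FPKM or more, 51 were above 0, 8 higher and 0 lower, where 47.9%, 11.5% and 13.5% of the 2697 genes at that level were. Only NDUFA4L2 and NDUFAF3 passed 2-fold, both higher, where 4.19% of all genes were 2-fold higher and 2.26% lower.

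The 78 subunits past the filter had a median log2 ratio of 0.11, with 48 above 0, against a median of 0.02 for all genes. At the same total FPKM the subunit median was 0.00, with 39 of 78 above 0, and the all-gene median was -0.08. Together the subunit genes held 3.23% of all FPKM in the control and 3.24% with the DDX5 shRNA. The order of the subunit levels was nearly the same in both libraries, with a Spearman correlation of 0.96 across the 78 genes, which share both libraries and are not replicates. The 24 assembly factors had a median of -0.02, with 12 above 0, and spread more widely, from -0.48 for COX16 to 1.06 for NDUFAF3. Of the 11 genes past 1.5-fold, 5 were subunits, all in complex I, 4 were assembly factors, 1 was the isoform NDUFA4L2 and 1 the regulator ATP5IF1. The plot by complex sets these groups side by side.

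**Figure D1:**
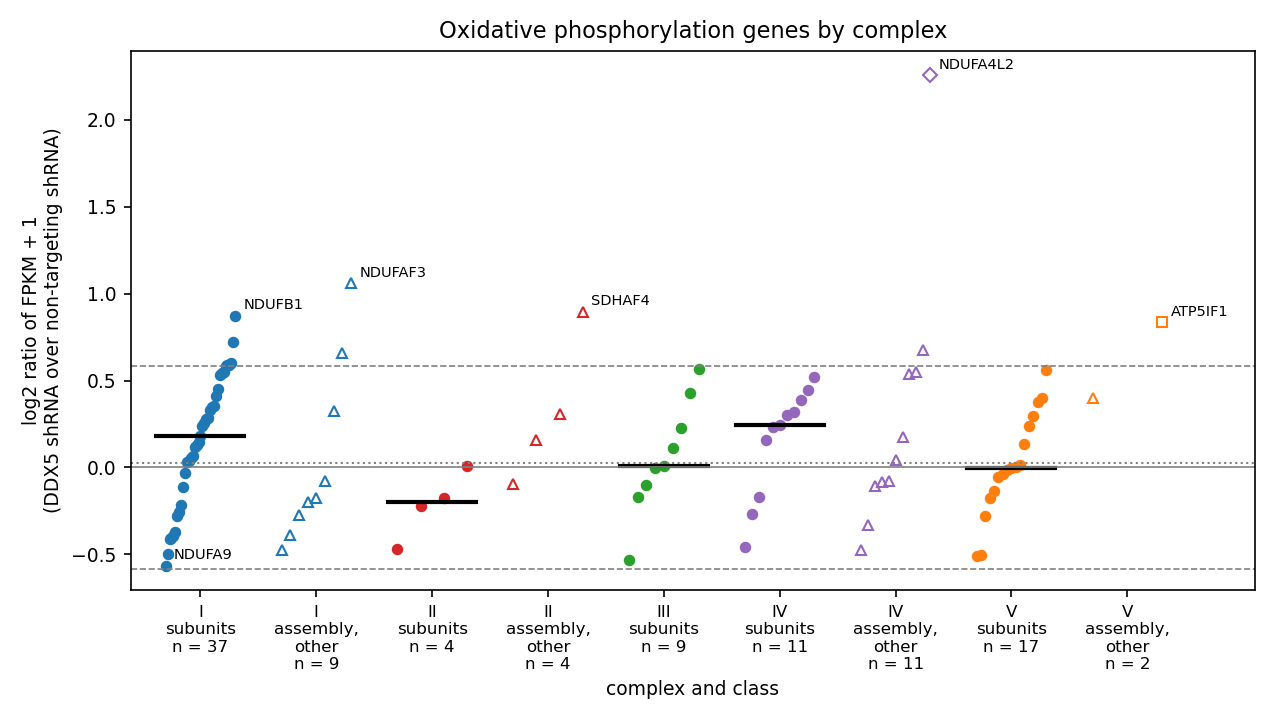
Each point is 1 gene past the filter; the y axis is the log2 ratio of FPKM + 1, DDX5 shRNA over non-targeting shRNA, and the x axis groups genes by complex, with circles for subunits, triangles for assembly factors, a diamond for NDUFA4L2, a square for ATP5IF1 and black bars at subunit medians. Dashed lines mark 1.5-fold and the dotted line the median of all genes (0.02); the 11 genes above the upper dashed line are named in the text, and no gene lies below the lower one.

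Complex I is an L-shaped enzyme whose matrix arm oxidises NADH and whose membrane arm pumps protons. Its 37 nuclear subunits had a median log2 ratio of 0.18, with 26 above 0 and 5 (13.5%) at least 1.5-fold higher, close to the 13.0% of all genes. Rescaling to equal totals gave a median of 0.07, with 22 above 0, 2 higher and 2 lower. The 10 subunits of the NADH-oxidising module at the tip of the matrix arm all had ratios above 0, with a median of 0.31, and 8 of the 10 were above 0 at the same total. The ubiquinone-reducing module next to it had a median of 0.10, with 3 of 6 above 0. In the membrane arm, the proximal part had a median of 0.07, with 5 of 9 above 0, and the distal part a median of 0.15, with 8 of 12 above 0. The difference between modules was not tested.

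In the NADH-oxidising module, NDUFV1, the subunit that binds NADH and the flavin FMN, stood at 100.15 FPKM in the control and 126.29 FPKM with the DDX5 shRNA. NDUFS1, its largest iron-sulfur subunit, stood at 48.69 and 53.93 FPKM, and NDUFV2, another iron-sulfur subunit, at 123.94 and 126.52 FPKM. The 3 core subunits thus lay within a narrow range of ratios, from 0.03 for NDUFV2 to 0.33 for NDUFV1. Accessory subunits spread further. NDUFS4, at the tip of the arm, stood at 61.26 and 88.90 FPKM (log2 ratio 0.53), and NDUFA7 at 100.25 and 151.29 FPKM (0.59), the module's highest ratio. NDUFA7 shares 73.2% of its 50-base windows with other annotated transcripts, chiefly a readthrough transcript. NDUFV2, which has the lowest of the core ratios here, shares 80.9%. Reads of both genes could thus be divided in more than 1 way. NDUFA12 stood at 92.34 and 112.85 FPKM, and NDUFAF2, its paralog that holds its place during assembly, at 86.07 and 81.51 FPKM. NDUFAF2 shares 37.3% of its windows.

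The ubiquinone-reducing module held the widest contrasts among the core subunits. NDUFS7, which carries the last iron-sulfur cluster before ubiquinone, stood at 86.08 FPKM in the control and 142.53 FPKM with the DDX5 shRNA, a log2 ratio of 0.72. NDUFS8, a further iron-sulfur subunit, stood at 109.47 and 160.69 FPKM (0.55). NDUFS3, a core subunit without a cofactor, went the other way, from 98.65 to 73.90 FPKM (-0.41). NDUFA9, an accessory subunit that binds NADPH, had the lowest ratio of all 104 genes, with 64.23 and 43.11 FPKM (-0.56), just inside 1.5-fold. For NDUFS7, 37.9% of the exon bases lie opposite another annotated gene, and the strand setting of the counting is not given in the sources used here.

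In the membrane arm, NDUFB1, a distal accessory subunit, had the highest ratio of any subunit, at 152.17 FPKM in the control and 279.59 FPKM with the DDX5 shRNA (log2 ratio 0.87). It is a short transcript of 528 bases, with no annotated exon overlap and 4.2% shared windows. NDUFB11, also distal, stood at 60.15 and 90.86 FPKM (0.59), with 45.8% of its exon bases opposite RBM10, which stood at 25.76 and 20.64 FPKM. NDUFA11 stood at 128.88 and 196.13 FPKM (0.60), and NDUFA13, also known as GRIM-19, at 388.41 and 582.13 FPKM (0.58), just short of the threshold. These last 2 genes share 65.3% and 41.1% of their windows with other transcripts. The lowest ratios of the arm were those of NDUFC2, at 39.01 and 27.35 FPKM (-0.50), NDUFB3, at 75.29 and 56.50 FPKM (-0.41), and NDUFB6, at 52.73 and 39.91 FPKM (-0.39). Neighbouring subunits of the same arm therefore had ratios on both sides of 0.

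NDUFB9, a distal accessory subunit with an LYR motif, stood far above its partners in both libraries, at 3294.61 FPKM in the control and 3597.19 FPKM with the DDX5 shRNA. That was 37.2 and 32.3 times the median of the other complex I subunits and 18.6% and 18.7% of the sum over all subunit genes. It ranked 13 among all genes of the non-targeting library, and its own log2 ratio was 0.13. Its neighbour TATDN1, which overlaps 26.0% of its exon bases on the opposite strand, stood at 328.73 and 404.64 FPKM, above the other nearby genes RNF139 (103.64 and 135.87 FPKM) and MTSS1 (17.88 and 18.37 FPKM). Of the windows of NDUFB9, 6.0% occur in another transcript. The gene model that the authors counted for NDUFB9 is unknown here, so its part in this value was not tested. Without NDUFB9 the subunits held 2.63% and 2.64% of all FPKM. The next highest complex I subunit, NDUFS5, a twin-CX9C accessory protein, stood at 479.16 and 394.88 FPKM.

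The 9 complex I assembly factors had a median log2 ratio of -0.18, with 3 above 0. NDUFAF3 and NDUFAF4 act together on the ubiquinone-reducing module, and their levels parted. NDUFAF3 stood at 22.07 FPKM in the control and 47.08 FPKM with the DDX5 shRNA (1.06), whereas NDUFAF4 stood at 15.20 and 13.33 FPKM. The NDUFAF3 level was 1.45 times that of NDUFAF4 in the control and 3.53 times with the DDX5 shRNA. DALRD3, which lies opposite 22.6% of the NDUFAF3 exon bases, was also higher, at 2.83 and 6.42 FPKM, and its part in the NDUFAF3 value was not tested. NDUFAF8, the partner of NDUFAF5, stood at 58.87 and 93.31 FPKM (0.66). At the low end were NDUFAF7, a methyltransferase, at 22.97 and 16.25 FPKM (-0.47), and DMAC2, at 28.55 and 21.54 FPKM (-0.39).

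Complex II, succinate dehydrogenase, belongs both to the respiratory chain and to the tricarboxylic acid cycle. It was the complex with the lowest median, -0.20 over 4 subunits with 1 above 0, and -0.31 at the same total with 0 above 0. When genes were centred on those of like length and GC content, its median was -0.15, close to -0.13 for complex V. None of the 4 passed 1.5-fold. SDHA, the flavin subunit that oxidises succinate, stood at 63.80 FPKM in the control and 45.73 FPKM with the DDX5 shRNA, a log2 ratio of -0.47. SDHD, a membrane anchor, stood at 106.05 and 90.72 FPKM (-0.22), and SDHB, the iron-sulfur subunit, at 104.18 and 92.14 FPKM (-0.18). SDHC, the other membrane anchor, was level at 45.02 and 45.31 FPKM (0.01). The sum of the 4 genes was 14.2% lower with the DDX5 shRNA. SDHA shares 22.1% of its windows with other transcripts, among them the pseudogene SDHAP1, and SDHD shares 28.1%. Without these, SDHB and SDHC alone had a median of -0.08.

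The complex II assembly factors lay higher than the subunits, with a median of 0.23 and 3 of 4 above 0. SDHAF4, which helps the flavin-bearing SDHA to mature, stood at 5.93 FPKM in the control and 11.90 FPKM with the DDX5 shRNA (0.90), about 106 and 216 fragments. SDHAF1, which serves iron-sulfur insertion into SDHB, stood at 15.01 and 18.78 FPKM (0.31). SDHAF3, which acts at the same step, stood at 19.51 and 21.86 FPKM (0.16), and SDHAF2, which serves flavin attachment to SDHA, at 21.11 and 19.72 FPKM (-0.09). SDHAF2 shares 34.7% of its windows with other transcripts. SDHA and 1 of its maturation factors thus had ratios of opposite sign.

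Complex III, the cytochrome bc1 complex, had a median log2 ratio of 0.01 over 9 of its 10 genes, with 5 above 0, and -0.10 at the same total, with 3 above 0. The 2 nuclear subunits that carry electrons were both lower: UQCRFS1, the Rieske iron-sulfur protein, stood at 243.21 FPKM in the control and 167.81 FPKM with the DDX5 shRNA (-0.53), and CYC1, cytochrome c1, at 157.05 and 146.27 FPKM (-0.10). The small membrane subunits UQCRQ, at 68.08 and 101.21 FPKM (0.57), and UQCR11, at 80.61 and 108.79 FPKM (0.43), had the highest ratios of the complex. The large core proteins UQCRC1, at 95.27 and 111.53 FPKM, and UQCRC2, at 105.57 and 105.53 FPKM, lay between them. UQCRH, the hinge protein that helps cytochrome c to bind, was the highest gene of the complex at 386.89 and 343.86 FPKM. Its intronless copy UQCRHL was listed at 0 and 0.17 FPKM, and UQCRH shares 28.6% of its windows with other transcripts, so reads of the pair could be divided differently. No gene of complex III passed 1.5-fold, as deposited.

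Complex IV, cytochrome c oxidase, had the highest median as deposited, 0.25 over 11 subunits with 8 above 0, but 0.09 against 0.10 for complex I when genes were centred on those of like length and GC content. With totals made equal the median was 0.13, again with 8 above 0. The catalytic subunits are mitochondrially encoded and were not analysed here, so all 11 are accessory. COX6A1 stood at 314.49 FPKM in the control and 450.81 FPKM with the DDX5 shRNA (0.52), COX7A2 at 155.16 and 211.60 FPKM (0.45), and COX5B, a zinc-binding matrix subunit, at 351.14 and 460.46 FPKM (0.39). The 3 subunits with ratios below 0 were COX6B1, which faces the intermembrane space, at 523.09 and 380.48 FPKM (-0.46), COX5A, on the matrix side, at 183.91 and 152.87 FPKM (-0.27), and COX7B, at 591.44 and 524.69 FPKM (-0.17). COX7B had the highest level of the complex in the control, and COX7C, at 520.61 and 617.77 FPKM, in the DDX5 shRNA library. COX6A1 shares 43.4% of its windows with other transcripts.

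Several complex IV subunits have tissue-specific forms, and the ubiquitous forms carried nearly all of the signal. COX7A2 stood at 155.16 and 211.60 FPKM, whereas COX7A1, the heart and muscle form, stood at 0.31 and 0.21 FPKM. COX6B1 was at 523.09 and 380.48 FPKM and the testis form COX6B2 at 0.32 and 0.30 FPKM. COX8A was at 419.43 and 517.76 FPKM, and the testis form COX8C was listed at 0 and 0.18 FPKM. COX4I1, the general form of subunit 4, stood at 387.56 and 455.08 FPKM. COX4I2, COX6A2 and COX7B2 were not analysed here.

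NDUFA4L2 was the exception among these isoforms. It stood at 3.15 FPKM in the control and 18.82 FPKM with the DDX5 shRNA, a log2 ratio of 2.26 and about 56 and 338 fragments. NDUFA4 stood at 121.57 and 135.55 FPKM (0.16), so NDUFA4 exceeded its paralog 38.6-fold in the control and 7.20-fold with the DDX5 shRNA. The ratio of NDUFA4L2 stayed between 1.55 and 2.54 under every alternative way of computing it. Of its exon bases 2.6% lie opposite SHMT2, which stood at 192.61 and 385.20 FPKM. None of the NDUFA4L2 windows occurs in another transcript.

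Complex IV assembly factors had a median of -0.02, with 5 of 10 above 0. COX14, which acts on the newly made catalytic subunit COX1, stood at 22.24 FPKM in the control and 36.12 FPKM with the DDX5 shRNA (0.68). COX7A2L, which joins complexes III and IV in supercomplexes, stood at 100.72 and 146.54 FPKM (0.54), and COX19, a copper-related factor, at 4.83 and 7.53 FPKM (0.55). COX16 was lowest at 27.74 and 19.67 FPKM (-0.48), and COX17, the copper chaperone, stood at 55.96 and 44.32 FPKM (-0.33). The heme synthesis enzymes COX10, at 10.69 and 11.02 FPKM, and COX15, at 16.77 and 15.74 FPKM, were nearly level. COX15 and COX16 share 42.4% and 34.7% of their windows with other transcripts. Factors that serve copper, heme and COX1 therefore followed no common direction.

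Complex V, the ATP synthase, had a median log2 ratio of 0.00 over 17 subunits with 8 above 0, and -0.12 at the same total with 6 above 0. In the F1 head, ATP5F1A, the alpha subunit, stood at 388.29 FPKM in the control and 272.10 FPKM with the DDX5 shRNA (-0.51), and ATP5F1B, the catalytic beta subunit, at 955.64 and 846.78 FPKM (-0.17). The central stalk subunits ATP5F1C, at 233.07 and 230.48 FPKM, and ATP5F1D, at 154.75 and 154.60 FPKM, were nearly level, and ATP5F1E alone lay above 0, at 399.76 and 491.29 FPKM (0.30). The sum of the 5 F1 genes was 6.39% lower with the DDX5 shRNA. The 4 peripheral stalk genes had a median of 0.10, led by ATP5PO, the OSCP subunit, at 294.69 and 388.57 FPKM (0.40). ATP5PO shares 68.5% of its windows with other transcripts.

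The c-ring, the rotor that protons turn, is built from a single protein coded by 3 genes, and these differed in direction. ATP5MC2 stood at 562.42 FPKM in the control and 831.23 FPKM with the DDX5 shRNA (0.56). ATP5MC3 stood at 83.91 and 58.91 FPKM (-0.50), and ATP5MC1 at 184.66 and 177.42 FPKM (-0.06). Summed, the 3 genes went from 830.99 to 1067.56 FPKM, 28.5% higher. The share of ATP5MC2 in that sum went from 67.7% to 77.9%, and that of ATP5MC3 from 10.1% to 5.52%. The mature protein is the same whichever gene it comes from, and the shared windows of ATP5MC2 and ATP5MC3 were 2.6% and 1.1%. Among the other membrane subunits, ATP5ME was highest in ratio at 226.66 and 294.28 FPKM (0.38) and ATP5MF lowest at 453.42 and 372.98 FPKM (-0.28). ATP5MF shares 38.5% of its windows with other transcripts.

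ATP5IF1 codes for the inhibitor that stops the ATP synthase from running backwards and consuming ATP. It stood at 164.11 FPKM in the control and 293.57 FPKM with the DDX5 shRNA, a log2 ratio of 0.84. It had no shared window and no overlapping exon. The level of the catalytic subunit ATP5F1B was 5.82 times that of ATP5IF1 in the control and 2.88 times with the DDX5 shRNA. DMAC2L, a factor linked to complex V, stood at 7.63 and 10.37 FPKM (0.40).

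**Figure D2:**
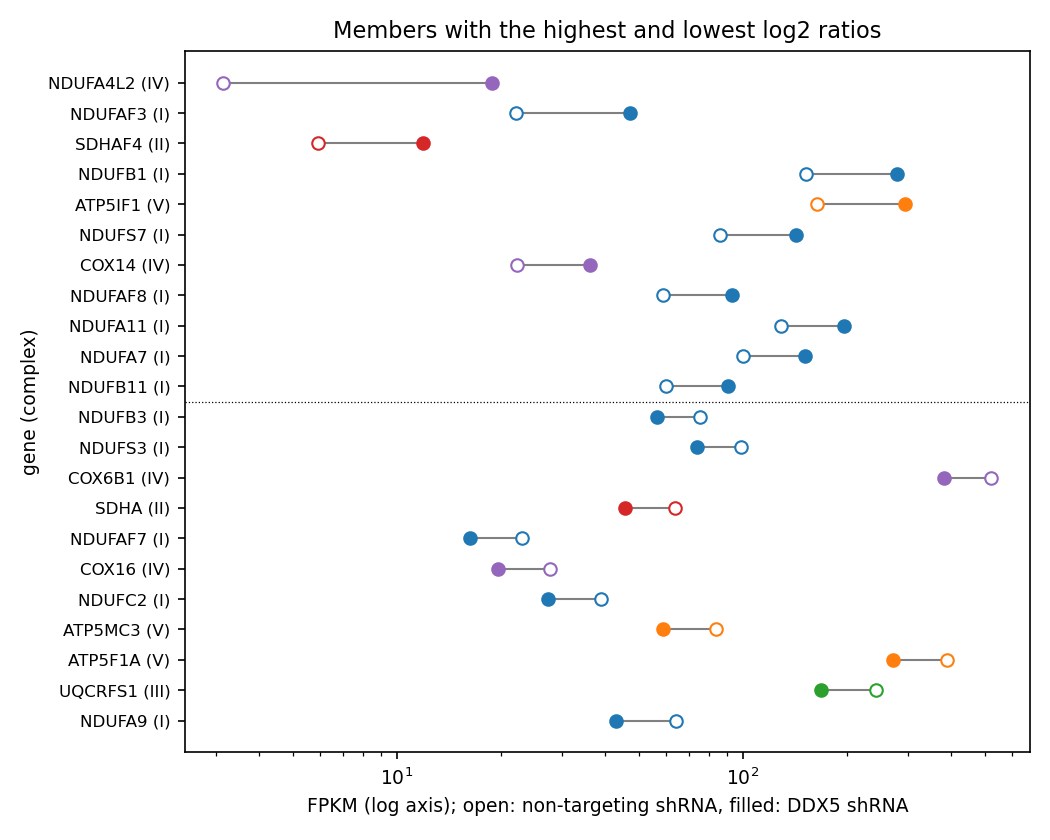
Genes of oxidative phosphorylation at the top and bottom of the log2 ratios, with the complex in brackets; the x axis is FPKM on a log scale, open points are the non-targeting library and filled points the DDX5 shRNA library, coloured by complex. Above the dotted line are the 11 genes at least 1.5-fold higher, from NDUFA4L2 (3.15 and 18.82 FPKM) to NDUFB11 (60.15 and 90.86 FPKM), and below it the 11 lowest, of which NDUFA9 (64.23 and 43.11 FPKM) is the last.

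Of the 11 higher genes, NDUFA4L2, NDUFAF3, SDHAF4, NDUFB1 and ATP5IF1 were at least 1.5-fold higher under every setting run. The other 6 came inside 1.5-fold in at least 1 setting. NDUFS7 was kept at the same total but not after centring on genes of like transcript length. No gene was 1.5-fold lower under every setting. The 6 genes that were lower at the same total were NDUFA9, NDUFC2, UQCRFS1, ATP5MC3, ATP5F1A and COX16. SDHA, at -0.58, lay at the edge of the threshold there.

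**Figure D3:**
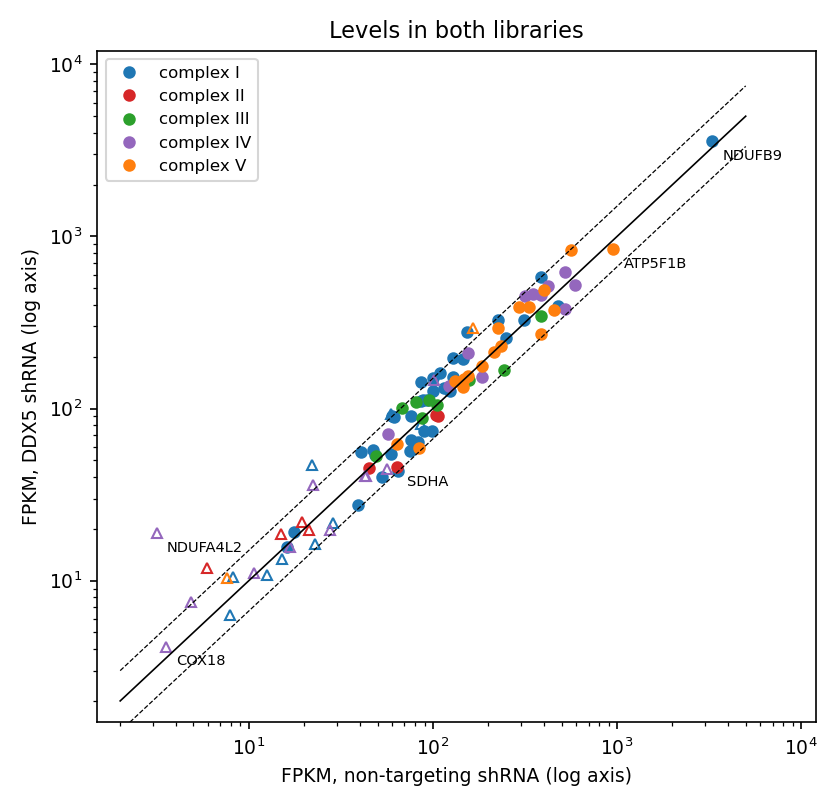
FPKM of each gene past the filter in the non-targeting library (x) and the DDX5 shRNA library (y), both on log axes, coloured by complex, with circles for subunits and triangles for the other classes. The solid line marks equal levels and the dashed lines 1.5-fold; most points lie between the dashed lines, NDUFB9 is the point at the upper right and NDUFA4L2 lies farthest above the upper line.

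Subunits classed as core or F1 and those classed as accessory, Fo or stalk differed in their medians. The 18 core and F1 subunits had a median log2 ratio of -0.01, with 8 above 0. They include NDUFS3, which has no cofactor, and the central stalk genes ATP5F1C, ATP5F1D and ATP5F1E. UQCRC1 and UQCRC2 were counted as accessory. The 60 accessory, Fo and stalk subunits had a median of 0.15, with 40 above 0. Within complex I the order was the reverse, with 0.24 for the 7 core subunits (6 above 0) and 0.15 for the 30 accessory subunits (20 above 0). Transcript properties moved with these values. Subunit transcripts were short, with a median of 1059 bases against 3190 bases for all genes. The 26 subunits of highest GC content (53.7% to 69.6%) had a median of 0.32, with 20 above 0, and the 26 of lowest GC content (36.4% to 45.5%) a median of 0.00, with 13 above 0. All genes in those GC ranges had medians of 0.04 and 0.00. The Spearman correlation of log2 ratio with GC content was 0.34 across the 78 subunits and 0.05 across 11172 genes, and with length -0.29 and -0.08. These are descriptions across genes of the same 2 libraries, and the part of GC content and length in the ratios was not tested beyond the centring given in the closing section.

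**Figure D4:**
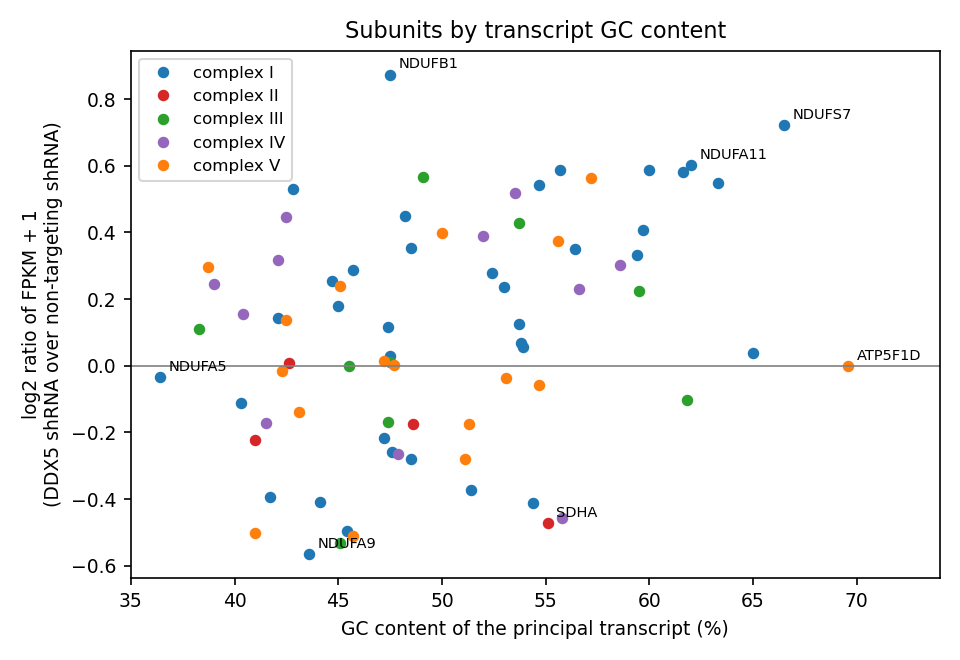
GC content of the principal transcript (x, percent) against the log2 ratio of FPKM + 1, DDX5 shRNA over non-targeting shRNA (y), for the 78 subunits past the filter, coloured by complex. Points at high GC content lie mostly above 0 (20 of the 26 subunits of highest GC), and those at low GC content are spread evenly around 0 (13 of 26 above).

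Genes that serve the same machinery were described from lists kept apart from the naming rule. Their counts are to be read against all genes, of which 52.0% were above 0, 13.0% at least 1.5-fold higher and 10.1% lower. Complex I assembly factors under other names had a median of 0.06 over 14 genes, with TMEM70 lowest at 18.54 FPKM in the control and 10.49 FPKM with the DDX5 shRNA (-0.77). Complex III assembly factors had a median of 0.05 over 9 genes, with 3 at least 1.5-fold higher, led by UQCC5 at 16.04 and 36.07 FPKM (1.12). The 22 further complex IV assembly factors had a median of -0.10, with SURF1, a factor for heme insertion into COX1, highest at 14.15 and 34.25 FPKM (1.22) and SCO2, a copper factor, below 0 (-0.58). The 4 genes on the list of further complex V factors were all above 0, with FMC1 highest (0.84). That result holds for the list as drawn up, in which TMEM70 was counted with complex I only. UQCC5 and SURF1 were the highest of their lists, whose medians lay near 0. Of the 22 complex IV factors, 3 (13.6%) were at least 1.5-fold higher, close to the 13.0% of all genes.

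Electron carriers and the enzymes of ubiquinone synthesis had a median of -0.05 over 19 genes. PDSS1, which makes the ubiquinone side chain, stood at 24.57 and 11.19 FPKM (-1.07), and COQ5, a methyltransferase of the ring, was the highest (0.95). Iron-sulfur assembly genes had a median of 0.16 over 13 genes, with 2 at least 1.5-fold higher and 1 lower. The tricarboxylic acid cycle genes, with pyruvate dehydrogenase, had a median of -0.12 over 18 genes, 4 of them above 0 and 3 at least 1.5-fold lower, against 52.0% and 10.1% of all genes. CS, citrate synthase, was among these at 247.95 and 157.94 FPKM (-0.65), and DLAT, a pyruvate dehydrogenase subunit, was the lowest (-0.84). SDHA to SDHD belong to that cycle too.

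The list that stood lowest was that of transcription and replication of mitochondrial DNA, with a median of -0.43 over 12 genes, 2 of them above 0 and 4 at least 1.5-fold lower, against 52.0% and 10.1% of all genes. The 2 above 0 were PRIMPOL (0.34) and TFB1M (0.24), and MGME1 (-0.10) and TWNK (-0.11) lay nearer 0 than the genes named below. At the same total the median of the list was -0.54, with 5 lower, against 14.3% of all genes. MTERF1, which ends transcription, stood at 10.22 and 4.89 FPKM (-0.93). TFAM, which packages mitochondrial DNA and starts its transcription, stood at 17.80 and 9.77 FPKM (-0.80), POLG, the replicating polymerase, had a ratio of -0.69, and TFB2M, a transcription factor of the mitochondrial polymerase, one of -0.65. The mitochondrial RNAs that these proteins make were not analysed here. Mitochondrial ribosomal proteins had a median of -0.11 over 77 genes, 28 above 0, whereas cytosolic ribosomal proteins had 0.32 over 82 genes, 77 above 0. Nuclear regulators of mitochondrial genes had a median of -0.15 over 11 genes, with 2 at least 1.5-fold higher and 1 lower. The higher ones were MYC (0.71) and GABPB2 (0.61), and the lower one was PPRC1 (-0.64). Of the factors whose motifs were searched, GABPA, an ETS family protein, stood at 9.02 and 5.78 FPKM and NRF1 at 6.69 and 5.11 FPKM, and YY1 had a log2 ratio of 0.12. Other ETS family proteins were not on the lists, and the part of these factors in any ratio was not tested.

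**Figure D5:**
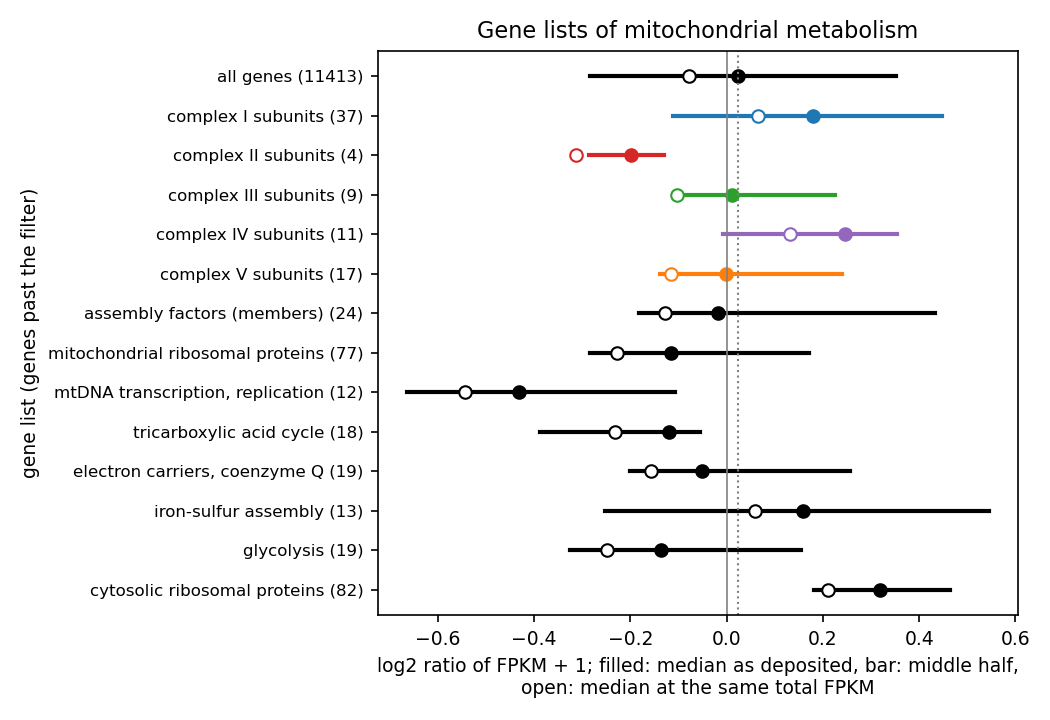
Median log2 ratio of FPKM + 1 (x; DDX5 shRNA over non-targeting shRNA) for gene lists (y), with the number of genes past the filter in brackets; filled points are values as deposited with a bar over the interquartile range, open points are medians at the same total FPKM, and the dotted line is the all-gene median. Complex I and IV subunits lie right of the all-gene median (0.18 and 0.25 against 0.02), complex II left of it (-0.20), and the genes of mitochondrial DNA transcription and replication farthest left (-0.43).

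The 6 genes below the filter were UQCRHL, COX7A1, COX6B2, COX8C, the readthrough NDUFC2-KCTD14 (0.33 and 0.32 FPKM) and the gene copy ATP5MGL (0.10 and 0 FPKM), none above 0.33 FPKM in either library. They entered no count or median. FPKM of partners that meet in fixed proportion in the enzyme differed from gene to gene in both libraries, by an amount that depended on the complex. In complex II the highest subunit level was 2.36 times the lowest in the control and 2.03 times with the DDX5 shRNA. In complex I it was 205 and 229 times, or 29.8 and 37.1 times without NDUFB9. In complex II the order was SDHD, SDHB, SDHA and SDHC in the control and SDHB, SDHD, SDHA and SDHC with the DDX5 shRNA, and the level of SDHB was 1.63 times that of SDHA in the control and 2.01 times with the DDX5 shRNA. Without replicates it is unknown which neighbours in such an order differ beyond the spread between cultures.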

How the data were processed

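RNA from 2 libraries of HGC-27 cells, 1 per condition, was read on Illumina sequencers, as the labels' protocols state. Per the file headers, the deposited table holds FPKM, 1 column per library. Tools listed in the submitters' processing notes are RSEM 1.2.8, HISAT and Bowtie2, with the build hg19 and no roles. For the annotation, strand setting and filters, the sources used here give nothing. RSEM divides shared reads by estimation, so near-identical genes can exchange values, and FPKM in 1 library depends on the other genes of that library.

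Columns were matched to conditions by sample title. RefSeq names (GRCh38.p14) matched 15289 of 16021 rows. The deposited FPKM values were used with a pseudocount of 1 on the log2 scale, which understates the difference of low genes, and a filter at a mean of 1 FPKM. Calls of 1.5-fold and 2-fold refer to FPKM + 1. No test was possible with 1 library per condition, so list counts stand beside those of all genes. Transcript length, GC content, exon overlap and shared sequence (50-base windows every 10 bases) came from the principal GENCODE v29 transcript, a different annotation from the authors'. Fragment numbers and depth are estimates: at the chosen step, 69.9% and 68.5% of 73 short genes fell within 0.15 of a whole step. Promoter windows came from RefSeq GRCh38.p14.

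The members and lists were chosen with earlier results of these data known. Genes named were those in the rule of highest and lowest ratios and levels per complex and class, all genes past 1.5-fold, paralog sets and list extremes. NDUFAF4 and other module partners, and overlapping and neighbouring genes, were named after their values were seen. So were GABPA, GABPB2, YY1, NRF1, PHB2, YME1L1, HSPD1, LONP1, CS, TFAM, POLG and TFB2M. The same holds for TFB1M, MGME1, TWNK, LDHA and PFKP. Values of 1 member are not reported here. Alternatives were other pseudocounts, filters, scalings and centrings, leaving out members with at least 20% shared windows, and counting NDUFA4 in complex I. Centring on length and GC together and leaving out NDUFB9 were added after seeing the data. Tool versions were matplotlib 3.10.9, pandas 2.3.3, numpy 2.4.6 and Python 3.11.15, and scripts were tested on simulated data.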

Additional observations from a re-analysis of the deposited data

How the results depend on the processing

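Medians of complexes I, II, IV and V and of all subunits kept their sign under each alternative run, and those of complex III and of the assembly factors did not. For complex V (-0.0014 as deposited) and all subunits (0.0021 at the same total) a kept sign says little, because these medians lay so near 0. At the same total FPKM the medians were 0.0021 for all subunits, -0.128 for assembly factors, 0.0659 for complex I, -0.313 for complex II, -0.103 for complex III, 0.131 for complex IV and -0.116 for complex V, with 6 genes at least 1.5-fold higher and 6 lower. With cytosolic ribosomal protein genes left out of that total, the median of all subunits was 0.112, with 11 genes higher and 0 lower. Centred on the median of all genes, complex III was at -0.0139, with 1 gene lower, and centred on the trimmed mean at -0.0168, with 1 lower. Centred on genes of like transcript length, complex II was at -0.300 and complex V at -0.144, with 5 genes higher and 1 lower. Centred on length and GC content together, complex II was at -0.15, complex IV at 0.089 and complex V at -0.13, with 5 higher and 2 lower. Without members that share sequence, assembly factors had 0.166, complex II -0.0832, and the subunit share of all FPKM was 2.68% and 2.64%. Without cytosolic ribosomal protein genes in the total, that share was 4.48% and 4.86%, and without NDUFB9 it was 2.63% and 2.64%. Causes of these shifts were not tested. Pseudocount, scaling of both libraries and centring do not alter the share and were not run for it. No paired analysis was possible because each condition has 1 library and no test was made. With no replicates, the spread between cultures is unknown, and fragment numbers limit the low genes most.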

Other observations

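Further gene lists, chosen with earlier results of these data known, are given beside all genes, of which 13.0% were at least 1.5-fold higher and 10.1% lower, with a median log2 ratio of 0.02. Of 15 genes of the mitochondrial stress response, 3 were at least 1.5-fold higher and 2 lower, with a median log2 ratio of 0.18 (0.07 at the same total FPKM). The matrix chaperonins HSPD1, at 922.89 FPKM in the control and 453.70 FPKM with the DDX5 shRNA (-1.02), and HSPE1, its co-chaperonin, at 454.54 and 161.54 FPKM (-1.49), were the lower genes. ATF5, a transcription factor of that response, stood at 13.50 and 40.81 FPKM (1.53), and LONP1, the matrix protease, at 65.81 and 146.65 FPKM (1.14). Another protease of the list, YME1L1, stood at 55.49 and 49.67 FPKM (-0.16), so the proteases had no common direction.

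Of 27 protein import genes, 2 were at least 1.5-fold higher and 4 lower, with a median of -0.02. TOMM40, the pore of the outer membrane, stood at 104.67 and 59.08 FPKM (-0.81), and TIMM9, a small chaperone of the intermembrane space, at 32.06 and 64.92 FPKM. Of 15 genes of inner membrane organisation and cardiolipin, 2 were higher and 1 lower, with a median of -0.02. PHB1, prohibitin 1, stood at 174.39 and 101.48 FPKM (-0.78), while its partner PHB2 stood at 304.05 and 296.73 FPKM (-0.04). Of 19 genes on the glycolysis list, 1 was higher and 3 lower, with a median of -0.14. The higher one was PDK1, a kinase of pyruvate dehydrogenase and not a glycolytic enzyme, at 2.01 and 9.75 FPKM (1.84). The lower ones were PKM (-1.05), LDHA (-0.81) and PFKP (-0.62).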
